A study of Mus musculus with 6 samples.

Results

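The genes described here encode proteins of the elastic fibre and of its microfibrils: the fibulins Fbln1, Fbln2, Fbln5 and Efemp2, the fibrillin Fbn1, elastin (Eln) and the latent TGF-beta-binding proteins Ltbp1, Ltbp2, Ltbp3 and Ltbp4. They were chosen by gene symbol, with the siMnt and siNTC values of these same libraries already known. Their log2 fold changes and adjusted p-values therefore describe the members and are no independent test. Of the 10 symbols 8 had a row among the 14526 genes of the deposited table, and Fbln5 and Eln were not analysed here. Levels come from RNA sequencing of NMuMG, a mouse mammary gland epithelial cell line that undergoes epithelial to mesenchymal transition (EMT) under TGF-beta. Both groups received TGF-beta and were collected at day 4, 3 libraries with small interfering RNA (siRNA) against the transcriptional repressor Mnt (siMnt) and 3 with a non-targeting siRNA (siNTC). TGF-beta and siRNA were added together 16 hours after plating and renewed on day 2, per the labels' protocols. The knockdown was partial, with Mnt at 50.4% of the control mean (log2 fold change -0.96 ± 0.22, adjusted p = 0.0546 by limma, or 0.00442 when replicate number entered the fit as a block). A gene passed at an adjusted p under 0.05, and errors are SD over 3 libraries for levels and SE for log2 fold changes. No culture without TGF-beta was analysed here.

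Fibrillin-1 polymers form the microfibrils on which elastin is laid down, and fibulins join elastin, microfibrils and crosslinking enzymes. Latent TGF-beta-binding proteins (LTBPs) resemble fibrillins in structure, and most of them hold TGF-beta in its inactive complex and tether it to the matrix, so that the family is at once scaffold and store of the growth factor that drives EMT in these cells. In siMnt cells the fibulin gene Fbln2, Fbn1 and Ltbp4 fell to between 36.1% and 43.0% of their control means. Ltbp1, Ltbp3 and Fbln1 lay at 100.7%, 98.2% and 96.0% of theirs. The low-abundance genes Ltbp2 and Efemp2 had means of 41.6% and 26.2% of control and did not pass the test. In libraries from whole cultures, fewer cells expressing a gene and less RNA per cell cannot be told apart.

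Mnt pairs with Max and binds E-boxes, the preferred form being CACGTG, and the promoters of the 3 members that fell are shown beside that of Fbln1, which holds this form. Windows from 250 bases before to 50 bases after annotated start sites were taken from RefSeq (build GRCm38.p6, mouse), which matched 9 of the 10 symbols and all 8 with values, in 16 windows. The 250 upstream bases are printed 5' to 3' on the gene's strand, with capitals marking any E-box CANNTG, of which CACGTG is a special case. Fbln2 starts downstream of chr6:91212514-91212763 (plus strand), Fbn1 of chr2:125506439-125506688 (minus strand), Ltbp4, at the most upstream of its 3 start sites, of chr7:27337613-27337862 (minus strand), and Fbln1 of chr15:85205699-85205948 (plus strand).
Fbln2: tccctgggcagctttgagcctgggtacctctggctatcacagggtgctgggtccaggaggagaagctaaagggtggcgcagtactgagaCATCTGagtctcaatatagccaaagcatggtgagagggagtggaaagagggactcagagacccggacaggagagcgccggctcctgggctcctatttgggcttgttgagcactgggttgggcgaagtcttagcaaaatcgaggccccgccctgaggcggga
Fbn1: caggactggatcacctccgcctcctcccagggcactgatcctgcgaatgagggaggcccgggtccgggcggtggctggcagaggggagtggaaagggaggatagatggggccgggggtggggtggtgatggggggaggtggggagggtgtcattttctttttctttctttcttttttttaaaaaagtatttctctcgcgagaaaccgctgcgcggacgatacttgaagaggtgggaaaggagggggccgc
Ltbp4: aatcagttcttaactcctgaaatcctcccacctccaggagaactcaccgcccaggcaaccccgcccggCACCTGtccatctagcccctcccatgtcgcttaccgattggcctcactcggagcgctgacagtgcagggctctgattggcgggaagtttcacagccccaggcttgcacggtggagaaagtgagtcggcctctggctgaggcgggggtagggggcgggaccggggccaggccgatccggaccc
Fbln1: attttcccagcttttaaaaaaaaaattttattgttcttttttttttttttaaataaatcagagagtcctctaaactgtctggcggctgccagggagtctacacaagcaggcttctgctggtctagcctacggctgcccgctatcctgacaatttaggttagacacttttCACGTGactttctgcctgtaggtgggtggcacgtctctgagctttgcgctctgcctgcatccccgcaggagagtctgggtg
On either strand CACGTG matched in the windows of Fbln1 alone among the 8 members with values, 81 bases before the start site used here. Each of the windows shown for Fbln2 and Ltbp4 held 1 E-box of the general form and that of Fbn1 held 1 as well, 39 bases after its start and so outside the printed stretch, which has no capitals. Over all promoters of this length 8.09% of 27025 genes held CACGTG and 75.0% held CANNTG. The SMAD sequence CAGACA, searched on both strands, matched in windows of Fbln1, Ltbp1 and Ltbp3 and in none of those of Fbn1, Fbln2, Ltbp4, Ltbp2 or Efemp2. It matched in 23.6% of all genes. GTCTAGAC, the palindromic SMAD sequence, matched in no member window and in 0.248% of all genes. A match describes letters in this window and does not show binding.

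Per kilobase (kb) of the longest coding transcript, Fbln2 was the most abundant member by far. The transcript lengths came from GENCODE M21 and ran from 2634 bases for Efemp2 to 11971 for Fbn1. In siNTC cells Fbln2 was at 11377 ± 2087 normalised read counts per kb (SD, n = 3), above 99.3% of the 13400 genes with a length. Next came Ltbp3 at 1159 ± 373 and Ltbp1 at 838 ± 189.5 per kb, whose ranges overlapped. Ltbp4 at 109 ± 22.7 and Fbln1 at 35.0 ± 6.08 per kb followed without overlap between neighbours. Fbn1 at 17.0 ± 3.78, Efemp2 at 7.82 ± 6.27 and Ltbp2 at 5.51 ± 1.38 per kb were the lowest, and their neighbouring ranges overlapped. In siMnt cells Fbln2 still led at 4387 ± 732 per kb, and Ltbp4 at 39.2 ± 19.5 now overlapped with Fbln1 at 33.6 ± 7.22 per kb. The main microfibril gene was thus low in these epithelial cells, above only 19.7% of the genes with a length, while a fibulin that binds fibrillin was among the highest.

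**Figure D1:**
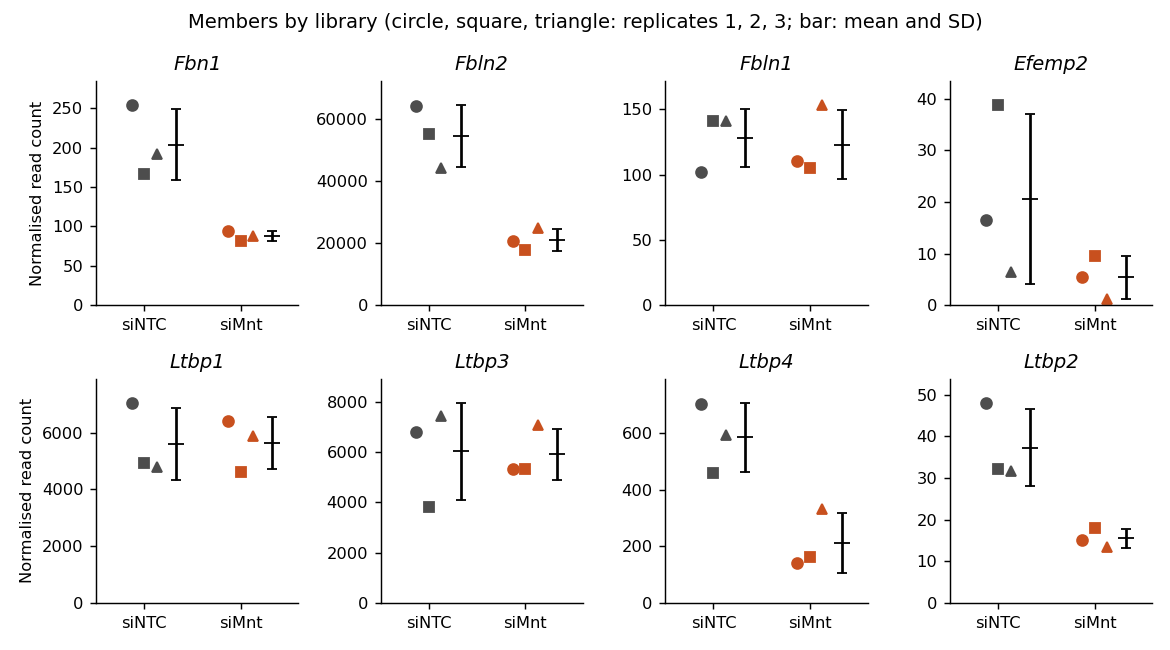
Normalised read count (vertical axis, from 0, a separate scale per gene) of the 8 members in each library, siNTC in grey and siMnt in orange, with symbols for replicates 1, 2 and 3 and bars for mean and SD (n = 3). All siMnt points lie below all siNTC points for Fbn1, Fbln2, Ltbp4 and Ltbp2, whereas the groups overlap for Fbln1, Ltbp1, Ltbp3 and Efemp2.

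Fbn1 encodes fibrillin-1, the core of the microfibril. Its normalised read counts were 254, 166 and 192 in siNTC replicates 1, 2 and 3 and 94.1, 81.1 and 88.2 in siMnt replicates 1, 2 and 3. The siMnt libraries lay close together and all below the controls, the lowest control being 1.77 times the highest siMnt value. The mean fell from 204 ± 45.3 to 87.8 ± 6.47 (log2 fold change -1.19 ± 0.21 SE, 95% confidence interval -1.68 to -0.70, adjusted p = 0.0313 by limma). Of its exonic bases in GENCODE M21, 2442 of 12128 are also exons of Gm9913 on the opposite strand, and without strand information reads of the pair cannot be told apart.

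Among the fibulins of the member list only Fbln2 passed the test. Fibulin-2 binds fibrillin, tropoelastin and basement membrane proteins, and its gene stood at 64147, 55003 and 44196 in siNTC replicates 1, 2 and 3 and at 20553, 17732 and 24699 in siMnt replicates 1, 2 and 3. The groups were separated by a ratio of 1.79 between their nearest libraries, siNTC replicate 3 and siMnt replicate 3. The mean fell from 54448 ± 9987 to 20995 ± 3505, 38.6% of control (log2 fold change -1.37 ± 0.19, 95% confidence interval -1.82 to -0.93, adjusted p = 0.0185 by limma). With at least 14860 recovered reads in every library, counting error adds little to this gene's spread. Fbln1, whose product is found in basement membranes and along elastic fibres, was at 102, 141 and 141 in siNTC and 110.3, 105 and 153 in siMnt replicates 1, 2 and 3. Its groups overlapped widely (128 ± 22.3 and 123 ± 26.4, log2 fold change -0.06 ± 0.23, 95% confidence interval -0.60 to 0.48, adjusted p = 0.905 by limma). A change of the size seen for Fbln2 lies outside that interval. Efemp2 encodes fibulin-4, which mice need to form elastic fibres. It was barely detected, with 19, 35 and 10 recovered reads in siNTC and 5, 8 and 1 in siMnt replicates 1, 2 and 3, or 16.6, 38.8 and 6.46 against 5.41, 9.55 and 1.23 normalised read counts. The controls spread widely and the lowest of them lay below siMnt replicate 2. It reached the filter on low values through its control libraries, and its log2 fold change of -1.71 ± 0.78 did not pass (adjusted p = 0.234 by limma), although it did in the blocked fit (adjusted p = 0.0404).

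Because Fbln2 carried 99.6% ± 0.114 of the summed per-kb level of Fbln1, Fbln2 and Efemp2 in siNTC and 99.2% ± 0.0606 in siMnt, the summed level of these fibulin genes followed it, from 11419 ± 2084 to 4422 ± 738 normalised read counts per kb.

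The LTBP genes divided by abundance. Ltbp1 and Ltbp3, whose products bind the latent forms of TGF-beta covalently, were abundant and kept similar values in both groups. Ltbp1 was at 7049, 4929 and 4796 in siNTC and 6403, 4613 and 5878 in siMnt replicates 1, 2 and 3. The ranges overlapped over most of their width, and replicate 1 was the highest library of each. Its means were 5591 ± 1264 and 5631 ± 920.2 (log2 fold change 0.02 ± 0.19, 95% confidence interval -0.41 to 0.45, adjusted p = 0.964 by limma). Ltbp3 was at 6807, 3811 and 7434 in siNTC and 5314, 5323 and 7082 in siMnt replicates 1, 2 and 3. The siMnt values all fell between the lowest and the highest control (6017 ± 1936 and 5906 ± 1018, log2 fold change 0.02 ± 0.25, 95% confidence interval -0.57 to 0.60, adjusted p = 0.976 by limma). Both intervals leave room for a modest change in either direction and do not reach the size of the falls of Fbn1 or Ltbp4.

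Ltbp4, whose product binds latent TGF-beta 1 weakly and takes part in elastic fibre assembly in mice, was at 703, 459 and 594 in siNTC and 139, 162 and 332 in siMnt replicates 1, 2 and 3. Every siMnt library lay below every control, and siMnt replicate 3 stood between the other siMnt libraries and the controls. The mean fell from 585 ± 123 to 211 ± 105 (log2 fold change -1.55 ± 0.33, 95% confidence interval -2.30 to -0.80, adjusted p = 0.0439 by limma), the largest fall among the members that passed. With edgeR on recovered reads it missed the threshold (adjusted p = 0.0534). Ltbp2 differs from the other LTBPs in that its product does not bind latent TGF-beta, and it binds fibrillin-1 instead. It gave 55, 29 and 49 recovered reads in siNTC and 14, 15 and 11 in siMnt replicates 1, 2 and 3, or 48.0, 32.1 and 31.7 against 15.1, 17.9 and 13.5 normalised read counts. The groups did not overlap, yet the log2 fold change of -1.20 ± 0.32 did not pass (adjusted p = 0.0759 by limma). It passed in the blocked fit (adjusted p = 0.044). Exons of the antisense gene D030025P21Rik cover 764 of the 8184 exonic bases of Ltbp2, with the same limit as for Fbn1, and a shorter stretch of Efemp2 (173 bases) overlaps exons of Mus81 on the opposite strand.

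**Figure D2:**
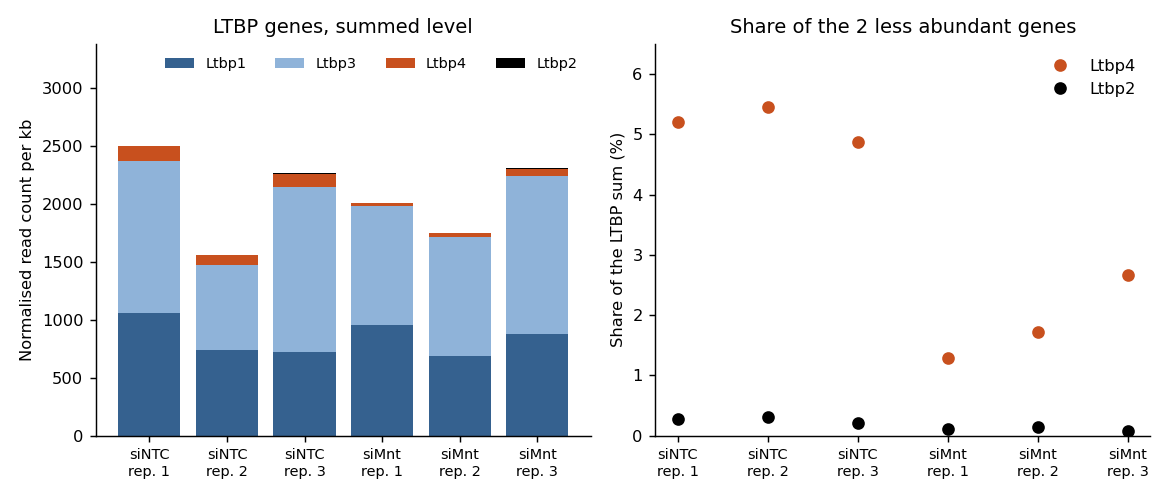
Left, normalised read count per kb of coding transcript (stacked bars, vertical axis from 0) of Ltbp1, Ltbp3, Ltbp4 and Ltbp2 in each of the 6 libraries. Right, the share of that sum (%) held by Ltbp4 and Ltbp2, where Ltbp4 lies between 4.87% and 5.45% in siNTC and between 1.29% and 2.67% in siMnt.

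The sum of the 4 LTBP genes per kb was 2112 ± 490.0 in siNTC and 2024 ± 279.9 in siMnt, a difference smaller than either SD. Its makeup shifted at the minor end. Ltbp4 held 5.18% ± 0.290 of the sum in siNTC and 1.89% ± 0.707 in siMnt, and Ltbp2 held 0.264% ± 0.0513 and 0.116% ± 0.0327. Ltbp1 held 40.4% ± 7.92 and 41.8% ± 5.17, and Ltbp3 54.2% ± 8.26 and 56.2% ± 4.6, so the shares of the major genes differed by less than their SDs.

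Counted over the whole list, 3 of the 8 tested members were lower in siMnt and 0 higher at an adjusted p under 0.05 (limma), where 1.37% of the 12568 tested genes were lower and 3.93% differed in either direction. By unadjusted p under 0.05, 4 members differed, all lower, as did 23.4% of tested genes in either direction. DESeq2 on recovered reads called 3 members lower and 0 higher, and 4.89% of tested genes lower. The median log2 fold change was -1.19 for the members and -0.01 for all tested genes. In 4 members, Fbn1, Fbln2, Ltbp2 and Ltbp4, all siMnt libraries lay below all siNTC libraries, which held for 15.9% of tested genes. In the blocked fit 6.56% of tested genes were lower and 4 members apart from Efemp2, with Ltbp2 added. Efemp2 was called there too, but it entered the test through its control libraries alone. These counts are on the contrast that was known when the members were chosen.

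**Figure D3:**
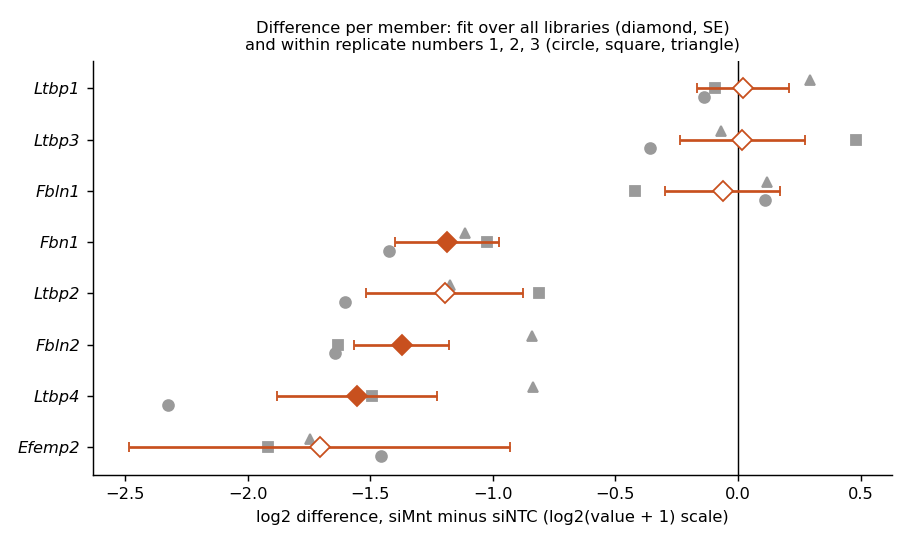
Log2 difference, siMnt minus siNTC, for each member (horizontal axis, log2(value + 1) scale): diamonds with SE bars are the limma estimates over 6 libraries, filled where the adjusted p was under 0.05, and grey symbols the differences within replicate numbers 1, 2 and 3. All 3 differences are negative for Fbn1, Ltbp2, Fbln2, Ltbp4 and Efemp2 and of mixed sign for Ltbp1, Ltbp3 and Fbln1.

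Within replicate numbers the falls differed in size. Fbn1 was the steadiest, with log2 differences of -1.42, -1.02 and -1.11 within numbers 1, 2 and 3. For Fbln2 they were -1.64, -1.63 and -0.84, and for Ltbp4 -2.33, -1.49 and -0.84, so that the smallest fall of both came with number 3.  In number 3, siMnt replicate 3 was the highest siMnt library for both Fbln2 and Ltbp4. Number 3 also includes siNTC replicate 3, which lay 58.8% of the way from the other controls to siMnt on the first principal component of all tested genes. For Fbn1 and Ltbp4 it stayed with the controls: on the log2 scale it lay 8.09% of the way for Fbn1 and -4.29% for Ltbp4, on the far side of the mean of the other controls. For Fbln2 it was the control nearest to siMnt, 28.2% of the way. Without it Fbln2, Fbn1, Ltbp4 and Ltbp2 were lower (adjusted p = 0.00168, 0.0145, 0.0295 and 0.0437 by limma), where 6.5% of tested genes were. Without siNTC replicate 2 Ltbp4 did not pass (adjusted p = 0.063), and without siMnt replicate 3 Fbn1 did not (adjusted p = 0.0836). Leaving out siNTC replicate 1, or either of siMnt replicates 1 and 2, limma called 0 members and also 0% of tested genes. In those fits 4, 4 and 5 members had an unadjusted p under 0.05, where 17.4%, 14.4% and 15.3% of tested genes did. DESeq2 called 3 members in each, against 5.65%, 3.56% and 4.41% of tested genes, and edgeR called 0. The values of Fbln2, Fbn1 and Ltbp4 there were negative log2 fold changes between -1.02 and -1.42.

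The libraries held 22323050 to 42193291 recovered reads. Epithelial markers were abundant in both groups, the 9 epithelial markers with a row summing to between 119930 and 148069 normalised read counts in siNTC and between 131097 and 143027 in siMnt, with 0 of 9 passing (limma). In the blocked fit Esrp2 and Cdh1 were higher (adjusted p = 0.0123 and 0.0474) and Cldn4 was lower (adjusted p = 0.0254). The 7 mesenchymal markers, mostly Fn1, summed to between 185840 and 322098 in siNTC and between 84003 and 128944 in siMnt. Vim, Cdh2 and Zeb2 were lower, in the same direction as Fbln2, Fbn1 and Ltbp4. Snai1 was at 136 ± 32.4 and 122 ± 16.2 with overlap (adjusted p = 0.778 by limma), and Snai2 averaged 3.83 and 0.795. The blocked fit added Fn1 and Zeb1 as lower (adjusted p = 0.0208 and 0.012). Fibroblast markers were low by comparison, 4 of 8 having a row and summing to at most 396 in siNTC and 564 in siMnt, with 0 passing, and Pdgfrb higher in the blocked fit (adjusted p = 0.0147). The 3 endothelial markers with a row summed to between 78.2 and 118 in siNTC and between 62.7 and 74.7 in siMnt, mostly Cdh5 at 80.1 and 40.4 on average (adjusted p = 0.0836 by limma, or 0.0435 in the blocked fit). The 3 blood markers with a row summed to between 125 and 266 and between 118 and 205, mostly Cd68 at 190.5 and 164. The pan-leukocyte gene Ptprc, the endothelial gene Pecam1 and the smooth muscle gene Myh11 averaged under 5 normalised read counts in either group (between 2.89 and 4.65). Of the 5 smooth muscle markers Cnn1 was lower, and the list summed to between 2238 and 5077 in siNTC and between 436 and 828 in siMnt. The blocked fit added Tagln as lower (adjusted p = 0.0146). The 4 myoepithelial and basal markers with a row summed to between 2125 and 2659 in siNTC and between 373 and 751 in siMnt. That sum was mostly Cnn1, which is in both lists and was the only one that passed, at 2234 ± 140 and 444 ± 201. The basal keratin Krt5 was higher in siMnt without overlap, at 29.7 ± 6.41 and 43.8 ± 1.30, and did not pass (adjusted p = 0.256 by limma). Acta2 overlapped, at 161 ± 151 and 42.1 ± 6.76, and Trp63 averaged 1.95 and 2.37. Whether these shifts have a part in the members' values was not tested.

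The partner genes of the elastic fibre and of latent TGF-beta, 55 of them tested, moved in both directions. Of these 6 were higher and 3 lower at an adjusted p under 0.05 (limma), or 16.4%, where 3.93% of all tested genes differed. That share includes Emilin2, Mmp9 and Mmp2, which reached the filter on low values only through the group where they are high. In the blocked fit 12 were higher and 11 lower, where 15.9% of all tested genes differed. Without siNTC replicate 3 the counts were 10 and 11, beside 16% of all tested genes, and without siMnt replicate 3 limma called 4, beside 0.995%. Limma called 0 when siNTC replicate 1 or siMnt replicates 1 or 2 were each left out. There 20, 19 and 18 partner genes passed an unadjusted p of 0.05, and DESeq2 called 12, 9 and 10 and edgeR 0, beside the shares of all genes given for the members. Their median log2 fold change was 0.18.

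**Figure D4:**
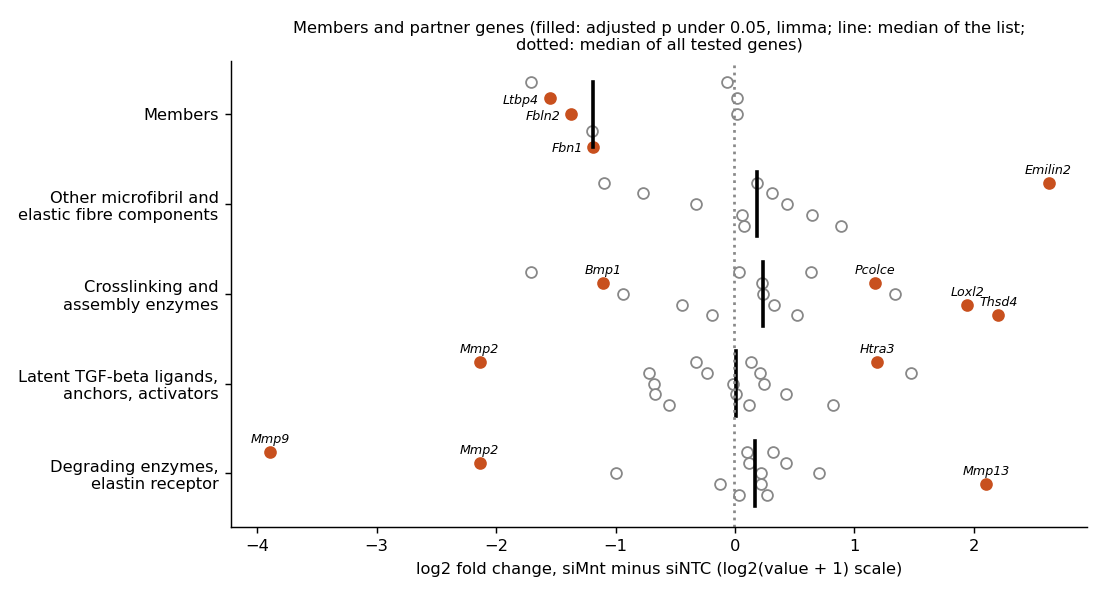
Log2 fold change, siMnt minus siNTC (horizontal axis, log2(value + 1) scale), of the 8 members and of the tested partner genes in 4 lists, filled where the adjusted p was under 0.05 (limma), with the median of each list as a line and that of all tested genes dotted. The medians of the partner lists lie between 0.01 and 0.23 and that of the members at -1.19, and Mmp2 and Mmp14 belong to both of the lower lists.

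Of the other microfibril and elastic fibre components 1 of 11 passed, where 3.93% of all tested genes differed. The blocked fit had 2 higher, Emilin2 and Hmcn1, and 1 lower, Fn1, where 15.9% of all tested genes differed. Emilin2, an elastin microfibril interface protein, rose from a low level, with 2.62, 2.22 and 9.04 normalised read counts in siNTC and 31.4, 35.8 and 22.1 in siMnt replicates 1, 2 and 3 (log2 fold change 2.63 ± 0.53, adjusted p = 0.0413 by limma). It reached the filter on low values through siMnt alone, where it is high. Fibronectin, Fn1, on which fibrillin assembly depends, was by count the most abundant gene of the list. It was at 269132, 167310 and 145991 in siNTC and 94444, 67382 and 105256 in siMnt replicates 1, 2 and 3. Its groups did not overlap, and the log2 fold change of -1.10 ± 0.29 passed in the blocked fit (adjusted p = 0.0208) but not without it (adjusted p = 0.0734 by limma). The basement membrane proteoglycan Hspg2 was at 11255 ± 3716 and 11439 ± 1483 (log2 fold change 0.08 ± 0.26). Hmcn1 was at 1523 ± 624 in siNTC and 2261 ± 286 in siMnt, with overlap. Its log2 fold change of 0.64 ± 0.27 did not pass (adjusted p = 0.202 by limma, or 0.0269 in the blocked fit).

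Crosslinking and assembly enzymes were mixed, 3 of 15 higher and 1 lower (26.7%), where 3.93% of all tested genes differed. The blocked fit had 4 higher and 4 lower, where 15.9% of all tested genes differed. It added Papln as higher (adjusted p = 0.0356) and Adamts6, Tgm2 and Loxl1 as lower (adjusted p = 0.0205, 0.0457 and 0.0332). Thsd4 (ADAMTSL6), which promotes fibrillin-1 assembly, was at 22.7, 16.6 and 24.5 in siNTC and 121, 109 and 77.2 in siMnt replicates 1, 2 and 3, and its rise, by a log2 fold change of 2.21 ± 0.29, passed (adjusted p = 0.0167 by limma). Loxl2, a lysyl oxidase, rose by a log2 fold change of 1.94 ± 0.24 (adjusted p = 0.0155), with 684.8, 543 and 683 in siNTC and 3354, 2549 and 1695 in siMnt replicates 1, 2 and 3. Pcolce and Bmp1 moved apart. Pcolce, the enhancer of procollagen C-proteinase, was higher in siMnt at 3788 ± 204 than in siNTC at 1701 ± 365, a log2 fold change of 1.17 ± 0.16 (adjusted p = 0.0168 by limma). Bmp1, that proteinase, which also processes lysyl oxidase and cleaves LTBP1, was lower at 3351 ± 231 than the 7326 ± 1699.9 of siNTC, a log2 fold change of -1.11 ± 0.17 (adjusted p = 0.0226 by limma). Among the abundant members of the list that did not pass, the transglutaminase Tgm2 had a log2 fold change of -0.45 ± 0.14 (adjusted p = 0.104, or 0.0457 in the blocked fit) and Loxl4 one of 0.22 ± 0.16. The less abundant lysyl oxidase Loxl1 was at 78.2 ± 34.7 in siNTC and 22.7 ± 9.36 in siMnt, without overlap. Its log2 fold change of -1.71 ± 0.48 did not pass (adjusted p = 0.0853 by limma, or 0.0332 in the blocked fit).

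Of the 17 tested latent TGF-beta ligands, anchors and activators 1 was higher and 1 lower, where 3.93% of all tested genes differed. In the blocked fit 3 were higher and 4 lower, where 15.9% of all tested genes differed. That fit added the integrin subunit Itgb6 (log2 fold change 0.82 ± 0.20, adjusted p = 0.00857) and the ligand Tgfb3 (1.47 ± 0.37, adjusted p = 0.0221) as higher. As lower it added Itgb1, Lrrc32 (-0.72 ± 0.33, adjusted p = 0.0358) and Plaur (-0.67 ± 0.24, adjusted p = 0.0432). Htra3, a secreted serine protease that acts on TGF-beta family signalling, was higher in siMnt, at 118 ± 15.9 against 51.0 ± 5.54, with a log2 fold change of 1.19 ± 0.22 (adjusted p = 0.0326 by limma). The gelatinase Mmp2 was lower, at 9.22 ± 3.01 against 43.6 ± 11.03, with a log2 fold change of -2.14 ± 0.38 (adjusted p = 0.0313 by limma). The integrin subunit Itgb1 had means of 47194 ± 11338 in siNTC and 29013 ± 2593 in siMnt and missed the threshold (log2 fold change -0.68 ± 0.20, adjusted p = 0.1 by limma, or 0.0329 in the blocked fit), and the activator Thbs1 was at 26367 ± 8327 and 34873 ± 8277 (log2 fold change 0.43 ± 0.28). Among 14 tested degrading enzymes and genes of the elastin receptor complex, the elastin-cleaving gelatinase Mmp9 and Mmp2 fell and the collagenase Mmp13 rose. By the same test 3.93% of all tested genes differed. The blocked fit had 3 of the 14 higher and 3 lower, where 15.9% of all tested genes differed. It added Adamts4 and Neu1 as higher (adjusted p = 0.0119 and 0.0372) and Ctsl as lower. Mmp9 was at 195, 206 and 58.1 in siNTC and 9.73, 7.16 and 7.35 in siMnt replicates 1, 2 and 3, and Mmp13 at 227, 258 and 655 against 1354, 1672 and 1357. The groups were separated for both genes. The log2 fold change was -3.89 ± 0.49 for Mmp9 (adjusted p = 0.0162 by limma) and 2.1 ± 0.36 for Mmp13 (adjusted p = 0.0288), siNTC replicate 3 being the control nearest to siMnt in each case. Mmp9 and Mmp2 lay below a mean of 10 in siMnt and reached the filter through siNTC alone, where they are high. The abundant cathepsins Ctsl and Ctsb did not pass, with a log2 fold change of -0.996 ± 0.31 for Ctsl (adjusted p = 0.107 by limma, or 0.0106 in the blocked fit) and 0.10 ± 0.15 for Ctsb.

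Genes outside the list that varied most like Ltbp4 over the 6 libraries were Cdr2l, Olfr1372-ps1 and Atp10d, with Pearson r of log2(value + 1) of 0.998, 0.991 and 0.990. Most like Ltbp1, the member with the highest log2 fold change, were Tnfrsf1b, Pcdhgc3 and Tmcc1 (r = 0.991, 0.975 and 0.967). These are the 3 highest of all tested genes for each member, and they describe likeness over these libraries alone.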

How the data were processed

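RNA was sequenced from 6 NMuMG samples at day 4 of TGF-beta, 3 siNTC and 3 siMnt, grouped and numbered by their titles. TopHat2 2.1.0, DESeq2 and build mm9 are named in the submitters' processing notes. How reads were counted, with which annotation, strand setting and filters, was not given in the sources used here. In the deposited table there is a signal for each of 14526 genes, which the values show to be whole reads divided by a factor per library (99.7% of those above 0 came within 0.05 of a whole read). Reads were recovered from it on that basis.

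After leaving out 1958 genes with a mean under 10, log2(value + 1) of the other 12568 was tested with limma 3.58.1 in R 4.3.3 (empirical Bayes with a trend, no block), with Benjamini-Hochberg adjustment over all of them. Fold changes on this scale understate changes of low genes. Count tests on recovered reads used edgeR 4.0.16 (quasi-likelihood, TMM) and DESeq2 1.42.0, and called 445 and 1457 genes. Errors of log2 fold changes are SE, others SD with n = 3. Other alternatives were the replicate number as a block, pseudocounts, filters, scalings, the variance model and leaving out each library. The scripts were tested on simulated data. Nothing in the labels says that replicates came from separate cultures, and p-values then reflect only the spread among these samples, which may be technical. No libraries were copies (mean chi-square per gene of at least 14.5 between replicates).

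Deviations of same-numbered libraries from their group means correlated at 0.28, 0.50 and 0.35 across genes for numbers 1, 2 and 3, and those of other pairs at between -0.38 and 0.03. Each same-numbered pair thus deviated together, and the numbers may pair the samples. Deviations cancel within a group, so the lower values of other pairs follow in part from this and add no separate support. The possible pairing rests on the titles' numbers and these values. Calls come from the fit without the block, and the blocked value stands beside those that it changes. The members and gene lists were chosen with earlier results of these data known. Named genes are all members, Mnt, and from each partner list up to 4 called genes with the largest change and the 2 with the highest mean not called, plus the 3 genes most like the member with the largest fall and the one with the highest log2 fold change. Partner genes that passed only in the blocked fit are named as well. The partner lists named 82 genes, of which 63 had a row and 55 were tested. Promoter sequences are from RefSeq (GRCm38.p6) and transcript lengths from GENCODE M21, both of another build than the authors', and used here for sequence and length alone. Tables were made with Python 3.11.15 and pandas 2.3.3.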

Additional observations from a re-analysis of the deposited data

How the results depend on the processing

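Fbn1, Fbln2, Ltbp2, Ltbp4 and Efemp2 kept a negative log2 fold change under every alternative run in which they were tested. The number of members called was 3, 5 with a replicate block, 2 or 3 under other pseudocounts, filters, scalings, variance models and tools, and 0 to 4 with 1 library left out. Without a variance trend Ltbp4 missed the threshold (adjusted p = 0.0703) and Ltbp2 passed (adjusted p = 0.0412), and with a mean of at least 50 required Ltbp4 missed it (adjusted p = 0.0502). Partner genes called numbered 9, and 23 with the block, 19 by DESeq2 on recovered reads and 0 to 21 with 1 library left out. Over all tested genes 494 were called, and 1998 with the block, 322 with the stricter filter, 306 without a variance trend, 1457 by DESeq2 and 0 to 2012 with 1 library left out. Limma called 0 genes when siNTC replicate 1, or siMnt replicate 1 or 2, was left out. Those fits had 2193, 1816 and 1920 genes with an unadjusted p under 0.05, and in them DESeq2 called 710, 447 and 554 genes and edgeR 0. The smaller fits have 3 residual degrees of freedom in place of 4, and the blocked fit has 2.

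Genes with a log2 fold change near 0 changed sign. With 1 library left out it ranged from -0.2315 to 0.0388 for Fbln1, -0.0796 to 0.1984 for Ltbp1, -0.2817 to 0.2001 for Ltbp3, -0.2351 to 0.2544 for Hspg2, -0.0357 to 0.0507 for Tnfrsf1b, -0.1555 to 0.4087 for Pcdhgc3 and -0.1249 to 0.0907 for Tmcc1. Ltbp3 was at -0.0168 by edgeR and -0.0197 by DESeq2, Tnfrsf1b at 0.0046 and 0.0026, and with quantile normalisation Tnfrsf1b was at 0.011 and Pcdhgc3 at -0.1114. Depth limits Efemp2 and Ltbp2, with as few as 1 and 11 reads in a library, and the intervals cover the spread of these libraries only.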
